A study of Mus musculus with 16 samples.

Results

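Here the cells with the highest level of FOXA2 are set against the cells gated as negative for it, across every expressed gene of day 4 mouse neural tube organoids. The 2 end gates held 8 of the 16 libraries in the table, 4 labelled high and 4 labelled negative, and the low and medium gates held the other 8. All cells came from the R1 mouse embryonic stem cell line with a FOXA2-Venus reporter, and all had retinoic acid (RA) for 18 hours, so the reporter, the line and the treatment are common to both groups. RNA was measured by BRB-seq, a bulk method in which libraries are barcoded and pooled early and the 3′ ends of transcripts are counted. The labels number the libraries 1 to 4 in each gate without calling them separate cultures, and p-values therefore speak only of the variation among libraries, which may be technical.

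FOXA2 is a forkhead transcription factor that can bind its sites in closed chromatin. In the neural tube it marks the floor plate, the strip of ventral midline cells that secretes Sonic hedgehog and netrin and so patterns the progenitors and axons beside it. The same factor is needed for the node, the notochord and the endoderm, so genes of those tissues are also known among its targets. The genes below are grouped by what their products do: enzymes, receptors, transcription factors, transporters, secreted factors and structural proteins.

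Foxa2, the gene that set the gates and so no finding, was at 110.1, 102, 139.6 and 100.5 CPM (counts scaled to a common library total) in high 1 to high 4 and at 1.78, 2.94, 5.26 and 1.63 in negative 1 to negative 4 (log2 fold change 5.36, SE 0.26, adjusted p = 1.02e-12), so every library carried the level its label gives. Totals ran from 3268948 counts in high 4 to 9961032 in negative 4, and high 2 (3998294) was the next smallest. High 2 and high 4 also lay at opposite ends of the second principal component of the 8 libraries (41.0 and -36.9; the other 6 between -4.57 and 5.05), which held 12.3% of the variance, while the first (47.6%) separated the gates. Negative 1 stood apart in 8 genes, of which Meis2, a homeobox gene, was at 33810 CPM there and between 386 and 860 CPM in the other 7 libraries, and its difference did not pass (adjusted p = 0.0617). The log2 fold changes, standard errors (SE) and Benjamini-Hochberg adjusted p-values below come from edgeR's quasi-likelihood test, with all 16 libraries in the fit and 0.05 as the threshold for a call. CPM compares 1 gene between libraries and says nothing of how 2 genes compare.

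The labels were set beside marker genes of the cell types such organoids can hold. Foxa2 is itself a floor plate marker and was fixed by the sort, so it is left out here: of the other 7 tested floor plate markers 6 were called higher in the high gate and 0 lower, with a summed level of 183 to 211 CPM in the high libraries and 94.1 to 116 in the negative ones and Ferd3l at 0 in both gates. Of 10 tested markers of endoderm 6 were higher and 0 lower (583 to 645 CPM against 220 to 271), with Hnf4a at 0 in the high gate. Epcam, Cldn6, Sox17 and Krt8 held most of this sum (3197, 2913, 2699 and 1935 counts in high, 2220, 851, 333 and 1913 in negative). The tested Gata4, Cxcr4, Trh and Rhox5 had fewer counts in the high gate (43, 35, 197 and 418 against 117, 61, 347 and 775). These counts were unscaled, and totals ran from 3268948 to 6517958 in high and 5451076 to 9961032 in negative libraries. Of 7 tested notochord and node markers 6 were higher (329 to 388 against 114 to 138), with Noto at 0 in both gates. Krt18 held most of this sum (5318 unscaled counts in high, 3024 in negative). Krt19 (934 against 192), Vtn (501 against 20), Chrd (131 against 22), T (81 against 13) and Cdx2 (75 against 37) had more counts in high. So had the untested Shh (26 against 7). Foxj1 (43 against 64) and the untested Tekt1 (25 against 50) had fewer. Pluripotent epiblast markers were lower in 11 of 13 tested cases and higher in 0 (73.7 to 109 CPM against 650 to 1120), with Pou5f1 at 0 counts in the high gate and 64 in the negative gate. Neural progenitor markers were lower in 7 of 8 (108 to 152 against 357 to 417). Neuronal markers were lower in 3 of 7 and higher in 0 (66.9 to 88.3 against 144 to 221), and no other marker list had more than 3 called members. Stmn2 (656 counts in high against 2887 in negative) and Tubb3 (408 against 1121) held most of the neuronal sum. In unscaled counts, the tested Elavl4 (144 against 140) and Isl1 (45 against 20) were above the negative gate. Map2 (107 against 126) and Rbfox3 (53 against 84) had fewer counts in the high gate. Because library totals also ran lower in that gate, these unscaled counts give no direction for Map2 and Rbfox3. Sox1 and Sox2 were listed at 0 in both gates, and both lie inside a longer noncoding gene on the same strand, Sox1ot and Sox2ot, in GENCODE M21. In bulk libraries, fewer cells of a type and less RNA per cell cannot be told apart, which holds for every gene below.

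Of 13891 genes tested, 1169 were higher in the high gate (8.42%) and 1187 were lower (8.55%), 17.0% in all. At least 2-fold changes were fitted for 472 of the higher and 576 of the lower genes, and at least 8-fold changes for 47 and 76. Receptors were called in 27.0% of 418 tested cases (68 higher, 45 lower), transcription factors in 21.9% of 852 (83 higher, 104 lower), transporters in 20.8% of 518 (45 higher, 63 lower) and enzymes in 19.1% of 2169 (228 higher, 187 lower). The enzyme class also holds inhibitors, regulators and inactive relatives of enzymes, such as Cdkn1c. Some enzymes, such as Hkdc1, were in none of the lists. Secreted factors had the highest share, 43.7% of 142 (32 higher, 30 lower), and structural and calcium-binding proteins followed with 28.0% of 304 (50 higher, 35 lower). Genes in none of the 29 lists were called in 14.6% of 9488 cases (663 higher, 723 lower). The median log2 fold change lay between -0.01 and 0.08 in each of the 6 classes and at 0.00 over all tested genes. In 21.6% of all tested genes the 4 high and the 4 negative libraries did not overlap (10.5% higher, 11.1% lower), and the genes named below were taken only from these, so their separation is a condition of naming and no result. Without the shallow high 2 and high 4 libraries the totals were 751 higher and 726 lower, and with all libraries thinned to the smallest total 775 genes were lower. Of the 58 list counts below, 21 fell by more than 1.5 times after thinning and 27 without high 2 and high 4.

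**Figure D1:**
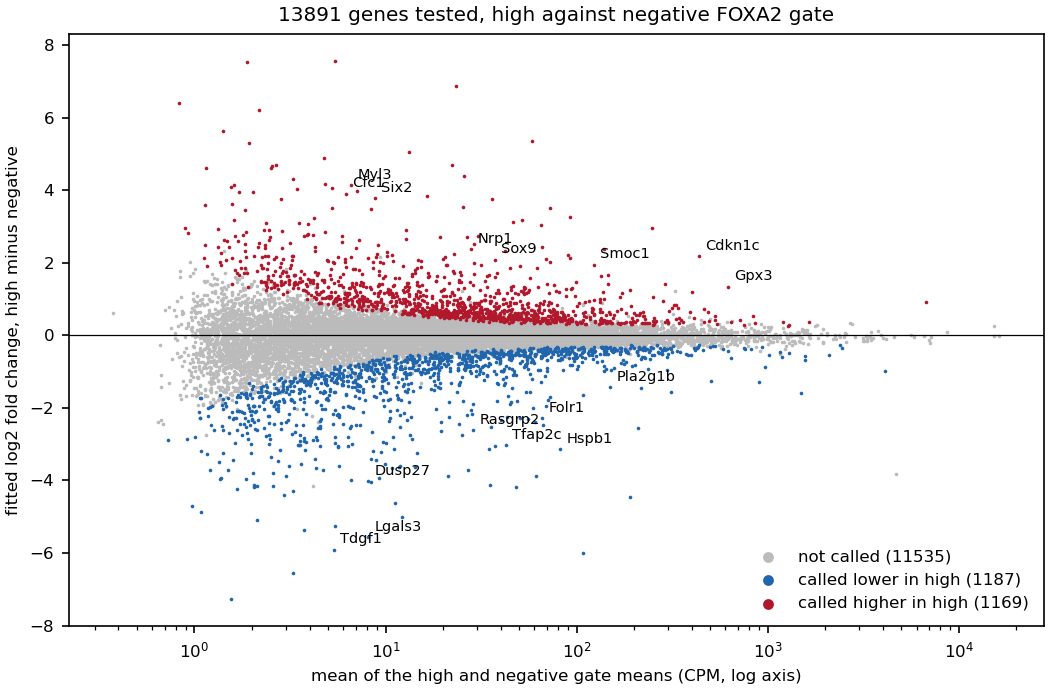
Each point is a tested gene, with its mean level in the 2 gates (CPM, log axis) against its fitted log2 fold change; red marks the 1169 genes called higher in the high gate, blue the 1187 called lower and grey the rest. Called genes lie on both sides of 0; Tdgf1 and Lgals3 are among the lowest of the labelled genes, and Myl3, Cfc1 and Six2 the highest.

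**Figure D2:**
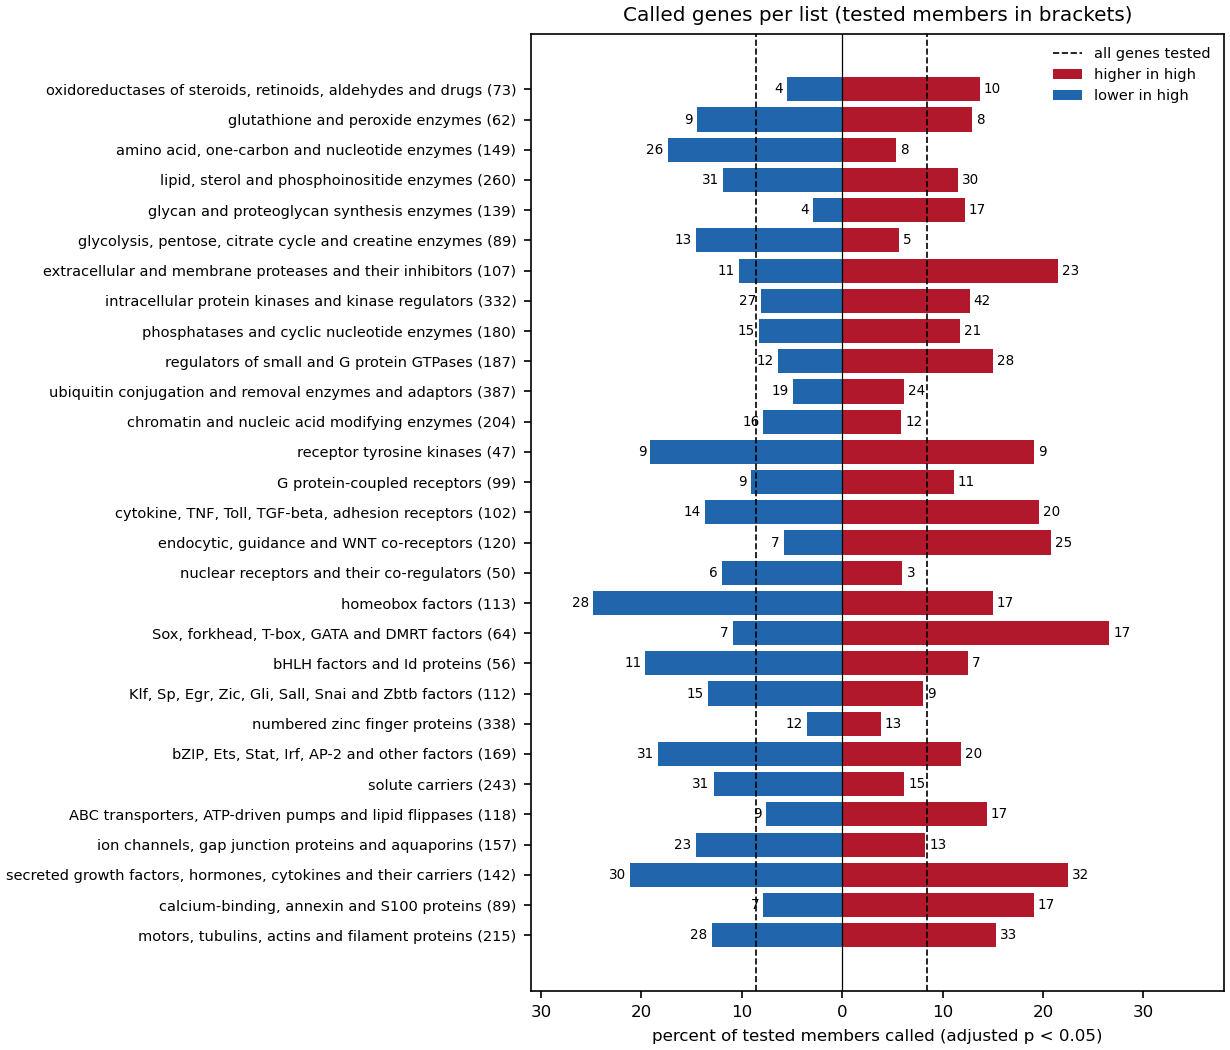
Bars give the percent of tested members of each of the 29 lists called higher (right) or lower (left) in the high gate, with the number of genes at each bar and the tested members in brackets; dashed lines mark all tested genes (8.42% and 8.55%). Sox, forkhead and related factors reach furthest to the right (17 of 64) and homeobox factors furthest to the left (28 of 113).

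Enzymes that act on aldehydes, steroids and drugs were called higher in 10 and lower in 4 of 73 tested cases. Aldh3b2, an aldehyde dehydrogenase, was at 43.6, 74.2, 55.2 and 40.1 CPM in the high libraries and 8.72, 6.41, 8.89 and 7.66 in the negative ones (log2 fold change 2.75, SE 0.21, adjusted p = 4.53e-11). Hsd17b14, a 17-beta-hydroxysteroid dehydrogenase, ran the other way, at 19.1, 22.4, 24.9 and 16.1 CPM in the high and 70.8, 75.1, 65.0 and 54.5 in the negative libraries (log2 fold change -1.67, SE 0.21, adjusted p = 1.82e-06). Akr7a5, an aldehyde reductase, rose from 235 ± 14.3 to 376 ± 10.3 CPM (SD, n = 4), and the aldose reductases Akr1b8 and Akr1b3 fell by 1.40 and 0.94 on the log2 scale. Among enzymes of glutathione and peroxide chemistry 8 were higher and 9 lower of 62. The secreted glutathione peroxidase Gpx3 was at 845, 859, 941 and 889.7 CPM in the high and 393, 361, 292 and 344 in the negative libraries (log2 fold change 1.35, SE 0.11, adjusted p = 1.14e-10), and the glutaredoxin Glrx rose from 8.04 ± 1.01 to 21.0 ± 1.11. Nqo1, a quinone reductase, was at 1.99, 2.77, 2.15 and 3.95 CPM in the high libraries and 12.0, 8.66, 11.8 and 8.58 in the negative ones (log2 fold change -1.96, SE 0.28, adjusted p = 6.59e-06). Heme oxygenase 1 (Hmox1), which breaks down heme, and the flavin reductase Blvrb fell with it, by 1.00 and 0.90. The call of Hmox1 was lost after thinning (log2 fold change -0.87, adjusted p = 0.0605). Without medium 2, which enters the fit through the spread, the expression filter and the scaling, 7 enzymes of the first list and 14 of the second were lower.

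Enzymes of amino acid, one-carbon and nucleotide metabolism were lower in 26 and higher in 8 of 149 cases, with a median log2 fold change of -0.16. Uridine phosphorylase (Upp1), which splits uridine into uracil and ribose phosphate, was at 27.2, 17.1, 22.8 and 19.7 CPM in the high and 55.4, 65.1, 57.5 and 43.9 in the negative libraries (log2 fold change -1.34, SE 0.17, adjusted p = 1.11e-06). The low and medium gates were lower still, at 13.1 ± 2.03 and 12.5 ± 2.77 CPM. Prps1, which makes the ribose donor of nucleotide synthesis, and Hprt, which salvages purines with it, fell by 1.03 and 0.92. The named rises in the list were smaller. Pcbd1, which recycles tetrahydrobiopterin and also binds the factor HNF1, went from 38.3 ± 3.69 to 65.0 ± 18.3 CPM, with high 4 at 91.4.

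Glycolysis, pentose, citrate cycle and creatine enzymes were lower in 13 and higher in 5 of 89 cases. Me3, the mitochondrial malic enzyme that yields NADPH, was at 1.49, 0.757, 0.769 and 1.82 CPM in the high libraries and 10.2, 13.7, 5.63 and 10.5 in the negative ones (log2 fold change -3.07, SE 0.40, adjusted p = 1.3e-06). Pfkp, the platelet-type phosphofructokinase, fell from 10.3 ± 3.58 to 2.49 ± 1.54 CPM, and sorbitol dehydrogenase (Sord) fell by 1.27. Eno3, the enolase of muscle, was at 99.0, 106, 103 and 93.2 CPM in the high and 65.4, 59.4, 47.5 and 53.8 in the negative libraries (log2 fold change 0.83, SE 0.12, adjusted p = 1.07e-05). Glycogenin (Gyg), which primes glycogen, rose by 0.67, and glycogen phosphorylase (Pygb), which breaks glycogen down, by 0.64, although the call of Pygb was lost after thinning (adjusted p = 0.0659). Hkdc1, a hexokinase-like enzyme that stood outside the lists, was at 10.1, 5.80, 13.7 and 23.7 CPM in the high libraries and 0.808, 0, 1.81 and 0.715 in the negative ones (log2 fold change 3.98, SE 0.50, adjusted p = 4.23e-06).

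Lipid, sterol and phosphoinositide enzymes were higher in 30 and lower in 31 of 260 cases. Both counts fell with fewer libraries or counts, to 19 and 23 without negative 2, 24 and 19 without high 3, and 20 and 19 after thinning. Faah, which breaks down the endocannabinoid anandamide, was at 13.6, 7.57, 12.0 and 11.5 CPM in the high and 3.72, 2.60, 4.72 and 5.31 in the negative libraries (log2 fold change 1.44, SE 0.31, adjusted p = 0.00146). The acyl-CoA thioesterase Acot1 rose from 49.6 ± 4.06 to 113 ± 8.19 CPM, and phospholipase C beta 1 (Plcb1) rose by 1.09. Pla2g1b, a secreted phospholipase A2, was at 69.5, 81.7, 89.2 and 84.1 CPM in the high libraries and 217, 227, 229.8 and 199 in the negative ones (log2 fold change -1.43, SE 0.11, adjusted p = 3.24e-11). Acsl1, which activates long fatty acids, and Plcg2, another phospholipase C, fell by 1.21 and 1.07.

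In glycan and proteoglycan synthesis 17 of 139 members were higher and 4 lower, or 2 lower without negative 4, high 3 or high 4. The higher count was 9 after thinning, with 1 lower, and 8 without high 2 and high 4. The 3 named rises were all sulfotransferases of proteoglycan chains. Chst11, which sulfates chondroitin, was at 13.4, 15.1, 11.7 and 13.1 CPM in the high libraries and 5.82, 2.77, 7.26 and 4.29 in the negative ones (log2 fold change 1.41, SE 0.29, adjusted p = 0.000778). Chst14, which sulfates dermatan, rose by 1.05, and Hs6st3, which sulfates heparan, by 0.99. Galnt7, which starts mucin-type chains, was at 23.2, 28.5, 28.1 and 26.1 CPM against 30.9, 36.0, 45.7 and 34.2 (adjusted p = 0.0441), a call lost in every fit that left out 1 high or negative library except negative 1.

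Extracellular proteases and their inhibitors were called in 31.8% of 107 cases, 23 higher and 11 lower. Adamts17, a metalloprotease of the matrix, was at 17.2, 12.9, 13.1 and 12.1 CPM in the high and 4.20, 2.94, 3.45 and 3.06 in the negative libraries (log2 fold change 2.03, SE 0.26, adjusted p = 7.13e-07). Cpn1, the catalytic chain of carboxypeptidase N, was at 47.1, 44.6, 54.6 and 53.1 CPM in the high libraries and 16.5, 9.70, 12.3 and 13.6 in the negative ones (log2 fold change 1.93, SE 0.22, adjusted p = 1.02e-06). Spink1, a trypsin inhibitor, rose from 6.22 ± 1.46 to 23.1 ± 3.78. The serine protease Prss23 was at 22.7, 23.7, 30.9 and 33.4 CPM in the high and 80.9, 71.5, 79.9 and 90.7 in the negative libraries (log2 fold change -1.55, SE 0.17, adjusted p = 2.19e-07), and it was also called lower in medium than in low. Wfdc2, a secreted protein of the whey acidic family, fell by 1.31, with its groups close together (16.1 CPM in high 4, 17.6 in negative 4). Adam23, a family member without catalytic activity, fell by 1.15. Cpn1 and Spink1 are known from liver and pancreas. The summed endoderm markers given above, mostly Epcam, Cldn6, Sox17 and Krt8, were higher in the same libraries. The part of endoderm cells in these rises was not tested.

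Protein kinases and their regulators were higher in 42 and lower in 27 of 332 cases. The first-ranked rise was Cdkn1c, which encodes p57, an inhibitor of cyclin-dependent kinases expressed as cells leave the cell cycle. It was at 717, 699.5, 656 and 779 CPM in the high and 176, 113, 175 and 159 in the negative libraries (log2 fold change 2.19, SE 0.16, adjusted p = 2.41e-09), with the lowest high library more than 3-fold above the highest negative one. Prkd1, a kinase activated by diacylglycerol, rose from 5.83 ± 1.16 to 17.6 ± 4.71 CPM. Pim2, a survival kinase, was at 13.8, 16.9, 11.4 and 18.8 CPM in the high libraries and 58.0, 112, 57.7 and 54.7 in the negative ones (log2 fold change -2.24, SE 0.24, adjusted p = 3.12e-07). Negative 2 was far above the other 3 negative libraries for Pim2, and these were still well above every high library. Sgk1, induced by glucocorticoids and serum, and the pseudokinase Camkv fell by 1.76 and 1.47.

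Phosphatases and cyclic nucleotide enzymes were higher in 21 and lower in 15 of 180 cases, and 13 were higher without high 1. Eya1, a tyrosine phosphatase that also serves as a coactivator of Six2 and its relatives, was at 21.9, 19.9, 13.5 and 12.1 CPM in the high and 2.75, 4.85, 3.81 and 2.55 in the negative libraries (log2 fold change 2.30, SE 0.29, adjusted p = 5.87e-07). Ppp2r2b, a regulatory subunit of protein phosphatase 2A, rose from 4.18 ± 1.53 to 17.6 ± 5.29 CPM, and Cdc14b, a phosphatase of mitotic exit, by 1.73 on the log2 scale. Dusp27, a dual-specificity phosphatase relative that lacks activity, was at 0.166, 0.757, 1.38 and 1.52 CPM in the high libraries and 16.5, 20.3, 12.2 and 12.1 in the negative ones (log2 fold change -4.02, SE 0.45, adjusted p = 1.71e-07). Alkaline phosphatase (Alpl), whose staining marks pluripotent cells, was at 17.1, 18.4, 14.9 and 17.0 against 60.6, 57.5, 68.2 and 51.5 CPM (log2 fold change -1.82, SE 0.17, adjusted p = 4.34e-09). Its low and medium levels, 22.8 ± 4.66 and 20.7 ± 5.34 CPM, were near that of the high gate. Ppp1r1a, an inhibitor of protein phosphatase 1, fell by 1.29 and was called lower in medium than in low as well.

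Regulators of small GTPases, the switches that set cell shape and adhesion, were higher in 28 and lower in 12 of 187 cases. Dock4, an exchange factor for Rac, was at 37.8, 29.3, 35.2 and 31.6 CPM in the high and 6.30, 11.1, 5.99 and 6.64 in the negative libraries (log2 fold change 2.17, SE 0.27, adjusted p = 2.8e-06). Elmo1, which belongs to the family of partners of DOCK proteins and stood outside the lists, was at 72.1, 76.9, 55.0 and 76.2 against 12.0, 15.6, 13.1 and 14.5 CPM (log2 fold change 2.34, SE 0.18, adjusted p = 3.24e-11). For both genes the lowest high library was more than 2-fold above the highest negative one. The guanine nucleotide exchange factors Arhgef28 and Plekhg3 rose by 1.66 and 1.64. Rasgrp2, an exchange factor for Rap, was at 8.46, 7.32, 7.84 and 8.80 CPM in the high libraries and 46.7, 60.6, 48.6 and 41.7 in the negative ones (log2 fold change -2.60, SE 0.17, adjusted p = 1.39e-12). Dlc1, a GTPase-activating protein, fell from 34.9 ± 7.73 to 13.7 ± 2.35 CPM, with the low and medium gates at 11.3 ± 2.63 and 12.2 ± 2.23.

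Ubiquitin enzymes and adaptors were called in 11.1% of 387 cases, below the 17.0% of all genes, with 24 higher and 19 lower. These counts fell when 1 library was left out: 11 were higher and 12 lower without high 1, and 12 or 13 were higher without high 2, negative 2 or negative 4. Calls over all genes fell as well, to between 931 and 1049 higher and 914 and 1063 lower without 1 high or negative library. Rnf128, a membrane-bound ubiquitin ligase, rose from 13.1 ± 3.93 to 22.9 ± 3.06 CPM. Trim30a, at 19.9, 19.7, 15.4 and 17.9 CPM in the high and 8.89, 11.9, 12.7 and 6.43 in the negative libraries, was not called without negative 4 (adjusted p = 0.0709). Fbxo15, an F-box protein known from embryonic stem cells, was at 0.663, 2.77, 2.00 and 0.911 CPM in the high and 13.4, 14.5, 9.07 and 7.66 in the negative libraries (log2 fold change -2.80, SE 0.48, adjusted p = 0.000143). Chromatin and nucleic acid modifying enzymes and Polycomb proteins were called in 13.7% of 204 cases, 12 higher and 16 lower, and 5 to 7 were higher without high 1, negative 1, negative 2 or negative 4. Prdm1 (BLIMP1), a repressor with a PR domain, was at 33.7, 21.4, 18.0 and 27.3 CPM in the high libraries and 9.05, 5.37, 11.4 and 7.35 in the negative ones (log2 fold change 1.60, SE 0.29, adjusted p = 0.000369). Hdac11, a histone deacetylase, rose by 0.97. Dnmt3l, the inactive partner of the new-methylation enzymes, was at 2.49, 4.04, 3.38 and 3.64 CPM against 22.6, 30.5, 28.3 and 15.4 (log2 fold change -2.85, SE 0.27, adjusted p = 4.39e-09), and Setd1a, a histone H3 lysine methyltransferase, fell from 164 ± 40.5 to 52.1 ± 4.28 CPM.

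**Figure D3:**
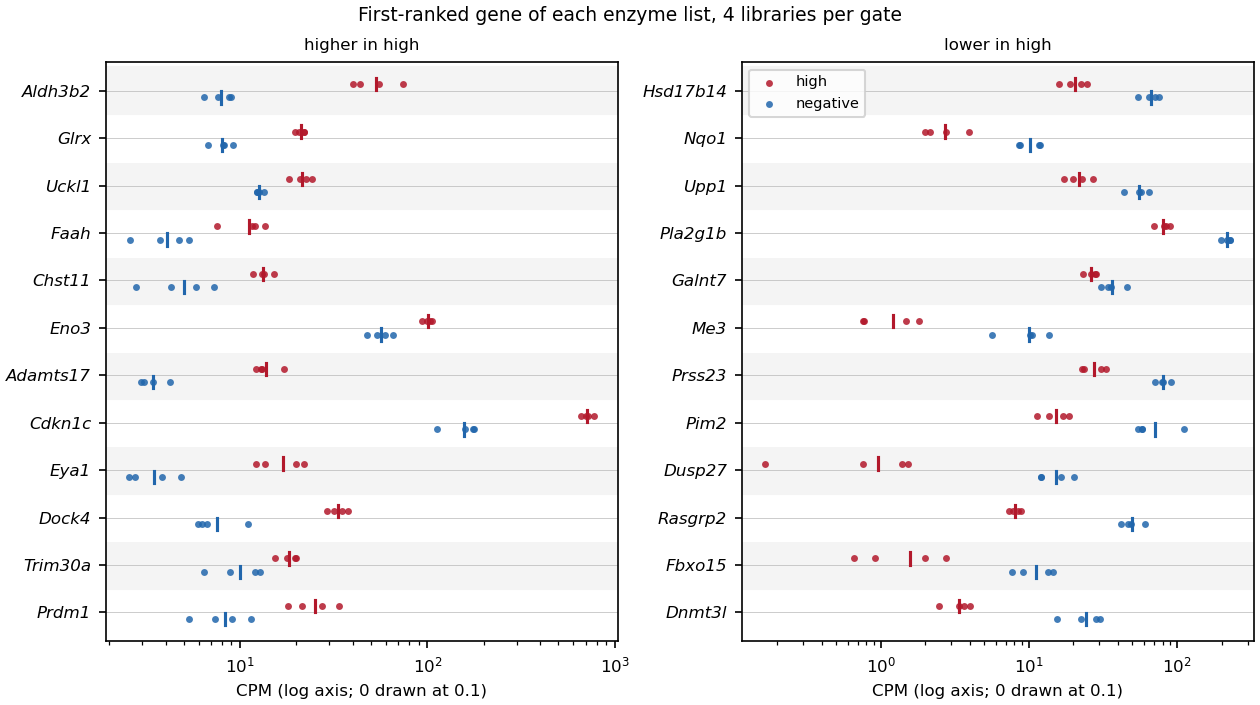
Points are single libraries (CPM, log axis; red high, blue negative) and ticks the means of 4 for the first-ranked gene of each enzyme list, rises on the left and falls on the right. In every row the 4 red and the 4 blue points are apart, which the naming rule requires; Cdkn1c is at 656 to 779 CPM in the high libraries and 113 to 176 in the negative ones.

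The sequences just upstream of the named genes were searched for the letters of the forkhead core, because FOXA2 itself set the gates. RefSeq promoters (GRCm38.p6) were matched for 135 of the 190 genes taken by the naming rule, and the 250 bases before the start of transcription were read on both strands. Of the named genes with TGTTTAC, 4 are shown, which need not be all of them: Cpn1 and Prdm1, which rose, and Klf9 and Prps1, which fell. They are printed 5′ to 3′ on the strand of the gene, with the match in capitals (its reverse complement, GTAAACA, where the match is on the other strand), as chr19:43986521-43986770 (minus strand), chr10:44458749-44458998 (minus), chr19:23140976-23141225 (plus) and chrX:140456353-140456602 (plus).
Cpn1: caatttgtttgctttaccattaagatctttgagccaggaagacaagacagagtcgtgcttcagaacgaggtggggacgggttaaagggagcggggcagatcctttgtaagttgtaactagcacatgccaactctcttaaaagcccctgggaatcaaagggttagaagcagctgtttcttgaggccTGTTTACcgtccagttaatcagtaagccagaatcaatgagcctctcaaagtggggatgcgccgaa
Prdm1: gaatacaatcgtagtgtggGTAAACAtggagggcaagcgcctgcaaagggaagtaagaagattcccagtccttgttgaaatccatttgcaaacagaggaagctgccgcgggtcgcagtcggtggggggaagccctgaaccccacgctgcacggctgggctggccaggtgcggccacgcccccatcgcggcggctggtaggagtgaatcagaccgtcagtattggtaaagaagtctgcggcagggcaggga
Klf9: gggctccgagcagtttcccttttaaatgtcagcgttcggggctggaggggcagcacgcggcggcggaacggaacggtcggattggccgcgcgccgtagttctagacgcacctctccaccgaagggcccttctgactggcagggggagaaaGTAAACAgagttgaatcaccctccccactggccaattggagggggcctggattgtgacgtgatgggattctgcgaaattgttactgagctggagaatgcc
Prps1: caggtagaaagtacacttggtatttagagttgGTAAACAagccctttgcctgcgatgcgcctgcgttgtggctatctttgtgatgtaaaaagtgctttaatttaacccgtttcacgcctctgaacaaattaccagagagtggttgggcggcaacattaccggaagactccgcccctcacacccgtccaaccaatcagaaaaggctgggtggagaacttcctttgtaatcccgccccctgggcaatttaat
The match ended 59 bases before the start in Cpn1, 94 in Klf9, 212 in Prps1 and 225 in Prdm1. GENCODE M21 places Prdm1 at chr10:44437177-44528501 on the minus strand, so its printed window lies inside that gene, before an internal start. Which start was used in these cells was not measured. TGTTTAC was in 3.54% of the promoters of all 27025 genes with a promoter in the RefSeq table and in 2.55% of the 10467 tested genes matched, against 3.51% of 884 genes called higher and 3.26% of 860 called lower. The related TGTTTGC was in 3.90% of the tested, 6.45% of the higher and 3.72% of the lower genes, TGTTTAT in 2.66%, 3.28% and 1.63%, and TATTTAC in 1.67%, 1.36% and 2.09%. These are descriptions of short windows: a match is not a site, and no binding was measured.

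Receptors that take up cargo or read guidance cues were called higher in 25 and lower in 7 of 120 cases. Neuropilin 1 (Nrp1), the co-receptor of semaphorins and VEGF, was at 49.4, 33.5, 47.0 and 58.9 CPM in the high and 9.86, 5.02, 12.2 and 8.99 in the negative libraries (log2 fold change 2.39, SE 0.23, adjusted p = 1.57e-08). Plxna4, the plexin that signals with neuropilins, was at 20.2, 10.1, 15.5 and 16.1 against 3.39, 4.16, 4.36 and 3.78 CPM (log2 fold change 1.99, SE 0.24, adjusted p = 2.93e-07). Sorcs2, a sorting receptor for pro-neurotrophins, rose from 7.76 ± 0.98 to 25.6 ± 2.69. In the other direction, the folate receptor Folr1 was at 19.4, 20.7, 24.4 and 25.5 CPM in the high and 122, 86.7, 111 and 117 in the negative libraries (log2 fold change -2.29, SE 0.15, adjusted p = 3.35e-12). Robo2, a receptor for Slit proteins, fell from 20.8 ± 4.95 to 6.95 ± 1.48 CPM.

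Receptor tyrosine kinases split 9 and 9 among 47 tested, a called share of 38.3%, and 5 were lower without high 2. Flt1, a VEGF receptor, was at 11.9, 8.83, 10.6 and 10.9 CPM in the high libraries and 2.75, 5.19, 1.09 and 2.76 in the negative ones (log2 fold change 1.84, SE 0.33, adjusted p = 0.000159). Ephb3 was at 57.9, 53.7, 54.6 and 68.9 against 15.2, 22.5, 15.6 and 18.2 CPM (log2 fold change 1.71, SE 0.17, adjusted p = 5.14e-09), and Tyro3, which binds Gas6 and protein S, rose by 1.32. Ephrin receptors moved in both directions: Ephb3 rose while Epha2, at 1.33, 0.757, 0.615 and 0.607 CPM in the high and 5.49, 19.4, 8.71 and 8.88 in the negative libraries, and Epha7, at 8.46, 10.1, 11.5 and 7.89 and 35.1, 60.2, 43.7 and 35.7, fell by 3.60 and 2.18. The neurotrophin receptor Ntrk2 was at 7.13, 6.31, 4.92 and 6.98 CPM in the high libraries and 28.8, 39.0, 30.3 and 32.5 in the negative ones (log2 fold change -2.38, SE 0.22, adjusted p = 1.86e-09). Ephb3 and Tyro3 were also called higher, and Ntrk2 and Epha7 lower, in medium than in low.

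G protein-coupled receptors were higher in 11 and lower in 9 of 99 cases. Lpar3, a receptor for lysophosphatidic acid, was at 9.79, 15.9, 9.38 and 12.1 CPM in the high and 1.62, 2.25, 2.18 and 2.55 in the negative libraries (log2 fold change 2.42, SE 0.29, adjusted p = 3.24e-07). The WNT receptor Fzd2 was at 225, 231, 204 and 232 against 80.0, 77.9, 60.3 and 61.7 CPM (log2 fold change 1.67, SE 0.12, adjusted p = 2.41e-11), and Gprc5c, an orphan receptor of a family induced by retinoic acid, at 213, 218, 216 and 208 against 86.9, 75.7, 77.7 and 77.7 (log2 fold change 1.43, SE 0.10, adjusted p = 1.3e-11). Latrophilin 3 (Adgrl3), an adhesion receptor of synapses, was at 11.8, 11.1, 13.4 and 14.3 CPM in the high and 29.7, 25.4, 35.8 and 34.2 in the negative libraries (log2 fold change -1.31, SE 0.17, adjusted p = 1.19e-06). Of 102 cytokine, TGF-beta and adhesion-linked receptors 20 were higher and 14 lower, or 9 lower without negative 4. Bcam, a laminin receptor, rose from 88.5 ± 5.22 to 177 ± 14.8 CPM and Epcam, an epithelial adhesion molecule that is also in the endoderm list, from 83.2 ± 9.93 to 162 ± 8.23. Jam2, a junction protein, was at 2.49, 1.77, 2.31 and 1.82 against 10.8, 14.0, 13.4 and 9.50 CPM (log2 fold change -2.46, SE 0.29, adjusted p = 2.71e-07), and Cntfr, the receptor for ciliary neurotrophic factor, fell by 1.39. Nuclear receptors and their co-regulators were called in 18.0% of 50 cases, 3 higher (5 with the replicate number as a block) and 6 lower. The orphan receptor Rora rose from 11.2 ± 2.63 to 23.8 ± 3.88 CPM, and Nr5a2, a regulator of Oct4 in early embryos, was at 5.64, 5.04, 6.30 and 3.04 against 11.5, 12.8, 15.8 and 16.5 (log2 fold change -1.46, SE 0.26, adjusted p = 0.000104).

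Transcription factors of the Sox, forkhead, T-box, GATA and DMRT families were higher in 17 and lower in 7 of 64 cases, with a median log2 fold change of 0.20; the list holds Foxa2 and Foxa1. Sox9, a factor of glial, crest and cartilage fate that is also found in ventral neural progenitors, was at 68.0, 61.8, 57.0 and 54.0 CPM in the high and 16.8, 12.1, 15.1 and 12.9 in the negative libraries (log2 fold change 2.09, SE 0.16, adjusted p = 2.44e-11). Tcf7l2, an effector of WNT signals, rose from 23.4 ± 3.00 to 52.6 ± 9.62 CPM, and Gata3 from 11.4 ± 3.22 to 31.6 ± 8.13. High 2 had 19.4 CPM of Gata3, and no other high library was under 34.9. Sox15, a close relative of Sox2, was at 3.98, 4.29, 3.23 and 2.73 CPM in the high and 14.5, 15.6, 22.0 and 17.6 in the negative libraries (log2 fold change -2.27, SE 0.28, adjusted p = 5.67e-07). Foxb1, a forkhead gene of the dorsal and caudal neural tube, fell from 29.5 ± 10.2 to 7.29 ± 1.04 CPM. Forkhead and Sox members therefore stood on both sides of the comparison.

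Homeobox factors were called in 39.8% of 113 cases, with 28 lower and 17 higher and a median of -0.15. After thinning 18 were lower and 15 higher. Six2, known from kidney progenitors and craniofacial mesenchyme, was at 18.1, 21.9, 16.1 and 9.41 CPM in the high libraries and 1.29, 1.39, 0.907 and 1.12 in the negative ones (log2 fold change 3.79, SE 0.38, adjusted p = 1.07e-08). Eya1, the coactivator described above, rose as well. Lmx1b, a factor of the roof plate and of midbrain dopamine progenitors, rose from 5.08 ± 0.896 to 13.4 ± 5.15 CPM, and Prrx2, a mesenchymal factor, from 24.0 ± 5.06 to 49.8 ± 8.24. The dorsal factor Msx3 was at 1.16, 1.51, 3.08 and 3.64 CPM in the high and 16.6, 6.93, 16.1 and 18.4 in the negative libraries (log2 fold change -2.66, SE 0.31, adjusted p = 2.24e-07), and negative 2 was the lowest of its gate. Zfhx4 fell by 1.52, and Gbx2, which positions the border of midbrain and hindbrain, by 0.95.

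The bZIP, Ets, AP-2, Grainyhead and related factors were lower in 31 and higher in 20 of 169 cases. Tfap2c (AP-2 gamma), a factor of trophoblast, germ cells and surface ectoderm, was at 7.79, 9.59, 10.2 and 9.71 CPM in the high and 72.9, 64.8, 87.7 and 78.7 in the negative libraries (log2 fold change -3.03, SE 0.16, adjusted p = 6.62e-14), the smallest adjusted p among the named genes. Its level followed the order of the gates, with 28.9 ± 3.10 CPM in low and 17.4 ± 2.67 in medium. Its paralogue Tfap2b fell from 11.9 ± 7.63 to 1.45 ± 0.963, and Dppa2, a DNA-binding protein of pluripotent cells, was at 3.98, 1.01, 2.46 and 0.911 against 24.6, 22.9, 19.8 and 13.2 CPM (log2 fold change -3.13, SE 0.46, adjusted p = 5.63e-05). Grhl2, which acts in epithelial junctions and neural tube closure, rose from 4.07 ± 1.84 to 10.9 ± 2.09, and Ets2 from 19.5 ± 2.40 to 48.7 ± 5.47.

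The bHLH factors and Id proteins were lower in 11 and higher in 7 of 56 cases. Ascl2, known from trophoblast and intestinal stem cells, was at 0.995, 2.77, 1.84 and 1.21 CPM in the high libraries and 13.4, 10.9, 18.1 and 19.4 in the negative ones (log2 fold change -3.19, SE 0.38, adjusted p = 3.24e-07), whereas the broadly expressed E proteins Tcf3 and Tcf4 rose by 0.54 and 0.50 (Tcf4 was not called without high 2 and high 4, adjusted p = 0.0523). Hif3a, the third hypoxia-inducible alpha subunit, was at 12.3, 11.3, 10.8 and 9.71 against 7.59, 4.50, 6.53 and 6.33 CPM (adjusted p = 0.0283), and the call was lost without high 1 (adjusted p = 0.0818), high 2 (0.0556), high 3 (0.0510), negative 2 (0.0999) or negative 4 (0.0583). Among Klf, Zic, Gli, Sall and related zinc finger factors 15 were lower and 9 higher of 112, or 5 higher without negative 4. Klf7, a factor of neurons, was at 44.6, 41.4, 42.3 and 37.3 CPM in the high and 22.3, 21.6, 22.1 and 19.7 in the negative libraries (log2 fold change 0.95, SE 0.16, adjusted p = 7.15e-05). Casz1 and Klf9 fell by 1.26 and 1.06. Numbered zinc finger proteins had the lowest called share of any list, 7.40% of 338, with 13 higher and 12 lower (7 lower without high 1). Zfp703 rose from 21.6 ± 4.78 to 40.1 ± 3.12 CPM. Zfp42 (REX1), a marker of naive pluripotent cells, was at 7.30, 11.3, 5.07 and 4.86 CPM in the high and 50.7, 66.1, 87.8 and 46.0 in the negative libraries (log2 fold change -3.14, SE 0.30, adjusted p = 3.33e-07), and Zfp296 fell by 2.97.

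Solute carriers, which move small molecules across membranes, were lower in 31 and higher in 15 of 243 cases (9 higher without high 2; 18 lower and 7 higher after thinning). Slc7a3, a carrier of arginine and other cationic amino acids, was at 2.16, 4.04, 3.08 and 1.82 CPM in the high and 27.1, 34.6, 26.3 and 17.6 in the negative libraries (log2 fold change -3.23, SE 0.43, adjusted p = 2e-05). Slc4a5, a sodium bicarbonate cotransporter, fell from 18.7 ± 3.28 to 4.35 ± 1.34 CPM, and the nucleoside carrier Slc28a1 from 12.2 ± 2.55 to 3.46 ± 1.06. The organic anion carrier Slco3a1 went from 6.49 ± 0.884 to 24.1 ± 2.81 CPM (log2 fold change 1.90, SE 0.23, adjusted p = 3.12e-07), and Slc24a3, which exchanges sodium for calcium and potassium, rose by 1.46.

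Pumps, ABC transporters, lipid flippases and lipid carriers were higher in 17 and lower in 9 of 118 cases, with a median log2 fold change of 0.08. Fxyd6, a small subunit of the sodium pump, was at 221, 288, 229 and 215 CPM in the high and 122, 93.5, 97.7 and 112 in the negative libraries (log2 fold change 1.16, SE 0.11, adjusted p = 6.36e-09). The phospholipid flippase Atp8a1 rose from 9.93 ± 1.19 to 21.3 ± 3.38, and Ano1, a calcium-activated chloride channel of the anoctamin family, from 3.61 ± 1.98 to 11.4 ± 3.26 CPM. Fabp3, which carries fatty acids in the cytoplasm, was at 2.32, 5.04, 5.07 and 4.86 CPM in the high libraries and 23.1, 19.1, 20.9 and 15.3 in the negative ones (log2 fold change -2.19, SE 0.29, adjusted p = 1.23e-06). Apoc1, an apolipoprotein, fell by 1.75. Ion channels, gap junction proteins and aquaporins were lower in 23 and higher in 13 of 157 cases, or 15 lower without high 3. Itpr2, the channel that releases calcium from the endoplasmic reticulum, was at 50.4, 53.7, 42.9 and 38.2 CPM in the high and 15.3, 8.48, 12.3 and 10.2 in the negative libraries (log2 fold change 2.00, SE 0.27, adjusted p = 1.65e-05). Kcnma1, a potassium channel opened by calcium, and the mechanosensitive channel Piezo2 rose by 1.43 and 1.27. The glycine receptor subunit Glra1 was at 2.16, 5.30, 0.615 and 1.21 CPM against 16.0, 19.4, 14.9 and 18.0 (log2 fold change -2.94, SE 0.37, adjusted p = 1.02e-06).

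Secreted factors were called in 43.7% of 142 cases. The EGF-CFC family, cell-surface and secreted co-factors of Nodal, split: Cfc1 (Cryptic) was at 13.6, 9.33, 9.99 and 13.7 CPM in the high and 1.29, 0.693, 0 and 0.919 in the negative libraries (log2 fold change 3.91, SE 0.48, adjusted p = 5.03e-07). Tdgf1 (Cripto), its paralogue, was at 0, 0.757, 0 and 0 CPM in the high and 10.8, 18.0, 6.17 and 7.05 in the negative libraries, or 3 counts against 274 over the 4 libraries of each gate (adjusted p = 2.55e-06). One member was thus near 0 in each gate. Igfbp4, which binds insulin-like growth factors, was at 134, 146, 133 and 191 CPM in the high libraries and 32.3, 35.7, 34.1 and 34.3 in the negative ones (log2 fold change 2.14, SE 0.15, adjusted p = 3.45e-12). The chemokine Cxcl12 rose from 5.71 ± 1.05 to 16.8 ± 3.05 CPM, and Fgf1 fell from 14.8 ± 3.49 to 4.48 ± 1.49. Lefty1, an inhibitor of Nodal, fell by 2.38. High 2 had 41.4 CPM of Lefty1, and no other high library exceeded 15.1.

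Calcium-binding, annexin and S100 proteins were higher in 17 and lower in 7 of 89 cases. Smoc1, a matrix protein that antagonises BMP signals, went from 50.6 ± 3.91 to 196 ± 8.13 CPM (log2 fold change 1.95, SE 0.12, adjusted p = 1.88e-13). Neurocalcin delta (Ncald) and copine 8 (Cpne8) rose by 1.13 and 0.91, and Syt11, a synaptotagmin, fell by 0.89. Motors, tubulins, actins and filament proteins were called in 28.4% of 215 cases, 33 higher and 28 lower. Myl3, the myosin light chain of ventricle and slow muscle, was at 7.79, 20.2, 13.7 and 8.50 CPM in the high libraries and 0.485, 0.693, 0.544 and 0.919 in the negative ones (log2 fold change 4.15, SE 0.39, adjusted p = 2.07e-09). Keratin 7 (Krt7) was at 40.8, 46.7, 34.7 and 27.6 against 10.5, 6.75, 6.72 and 7.56 CPM (log2 fold change 2.25, SE 0.27, adjusted p = 1.67e-06), and gelsolin (Gsn), which cuts actin filaments, rose from 7.49 ± 0.662 to 32.2 ± 3.16. Cobl, which nucleates actin filaments and stood outside the lists, was at 52.2, 55.5, 51.0 and 39.2 CPM in the high and 9.21, 11.6, 8.53 and 6.02 in the negative libraries (log2 fold change 2.51, SE 0.21, adjusted p = 3.43e-10). The spectrin Sptbn4 fell by 1.48.

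**Figure D4:**
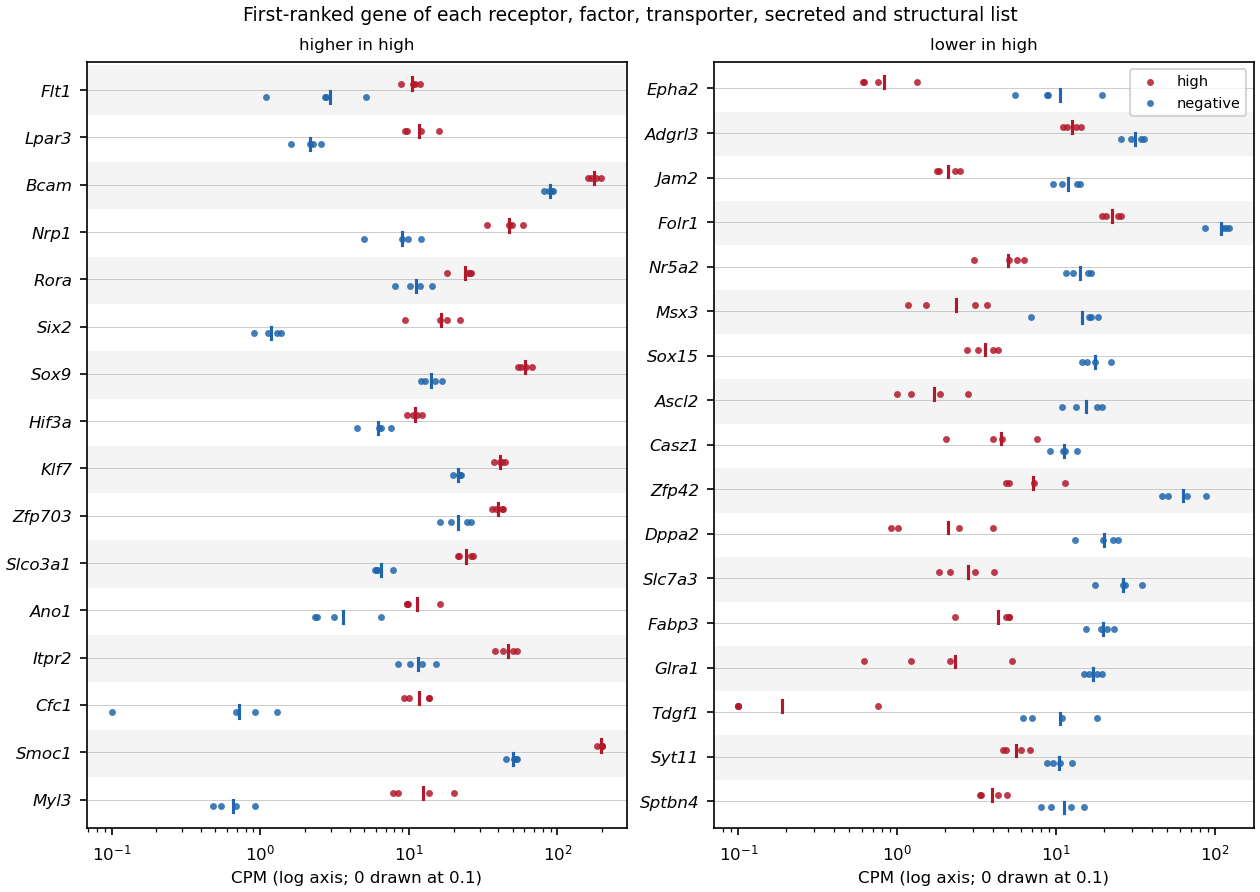
Points are single libraries (CPM, log axis, with 0 drawn at 0.1; red high, blue negative) and ticks the means of 4 for the first-ranked gene of each receptor, transcription factor, transporter, secreted and structural list, except 1 that is not shown. Six2, Cfc1 and Myl3 lie near or below 1 CPM in the negative libraries, and Tdgf1 was at 0 in 3 of the 4 high ones.

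Genes outside the lists gave further named changes. Selenoprotein P (Sepp1), which carries selenium in plasma, was at 213, 241, 248 and 228 CPM in the high and 19.6, 111, 21.4 and 27.8 in the negative libraries (log2 fold change 2.38, SE 0.49, adjusted p = 0.00464). Negative 2 lay between the other negative libraries and the high ones, and DESeq2 gave this gene no adjusted p. Gulo, which makes vitamin C in rodents, rose from 3.10 ± 0.585 to 14.9 ± 2.40 CPM, Cadps, a factor of dense-core vesicle release, by 2.50 on the log2 scale and Ripply3, a co-repressor of T-box factors, from 3.70 ± 0.77 to 16.6 ± 5.53. Mansc4, Afap1l1, Rin2 and Clstn2 rose by 2.75, 2.62, 2.22 and 2.17. Thpo (thrombopoietin) rose by 2.59, but its exons overlap those of Chrd on the opposite strand, and without a stated strand setting the reads of the 2 genes cannot be told apart. Among the falls, the small heat shock protein Hspb1 was at 13.3, 22.2, 15.4 and 17.0 CPM in the high and 178, 136, 168 and 108 in the negative libraries (log2 fold change -3.13, SE 0.22, adjusted p = 9.44e-10). Sfn (14-3-3 sigma), an epithelial p53 target, was at 4.64, 11.1, 6.76 and 10.6 against 75.5, 78.3, 59.4 and 53.5 CPM (log2 fold change -3.06, SE 0.24, adjusted p = 7.19e-10). The carbohydrate-binding protein Lgals3 was at 0, 0.757, 0 and 0.911 against 18.6, 20.9, 16.5 and 7.25 (log2 fold change -5.55, SE 0.63, adjusted p = 7.51e-07). Morc1, a silencer of transposons in germ cells, fell by 3.54, Triml2 by 3.05, Aoah, an enzyme that inactivates endotoxin, by 3.93, and Exoc3l by 3.40. Mir124-2hg, the host transcript of a neuronal microRNA, was at 0.79 ± 0.349 CPM in the high and 12.4 ± 2.30 in the negative gate, which is no measure of the mature microRNA, and Car10, an inactive carbonic anhydrase of brain, fell from 17.1 ± 3.22 to 1.75 ± 0.51.

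Falls that stand among genes of pluripotent cells included Zfp42, Dppa2, Dnmt3l, Fbxo15, Alpl, Tdgf1, Lefty1 and Nr5a2. Zfp42 and Tdgf1 are themselves among the pluripotent markers whose summed level was 650 to 1120 CPM in the negative libraries and 73.7 to 109 in the high ones, and the part of such cells in the other falls was not tested. These genes were already low in the low gate: Zfp42 was at 13.4 ± 4.53 CPM there against 62.7 ± 18.8 in the negative gate, Dnmt3l at 5.13 ± 1.82 against 24.2 ± 6.73 and Dppa2 at 4.29 ± 3.33 against 20.1 ± 5.02. Ntrk2 and Epha7, chosen here after their values were seen, had levels in low nearer to those in negative than in high. Ntrk2 was at 32.6 ± 4.49 CPM in negative, 27.4 ± 2.64 in low, 12.4 ± 4.49 in medium and 6.33 ± 1.01 in high, and Epha7 at 43.7 ± 11.7, 39.6 ± 9.41, 18.7 ± 2.78 and 9.49 ± 1.65.

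Some genes had counts in 1 of the 2 gates almost alone, by a rule of at most 3 counts over the 4 libraries of a gate and at least 40 over the other. Adam28, Gad1 and Fgf4 did not pass the expression filter and have no test. On the high side, Pkd1l1, a polycystin of the node cilia, had 26, 19, 10 and 22 counts in high 1 to high 4 and 1 count in all in the negative gate. Casp4, an inflammatory caspase, had 26, 21, 16 and 10 counts against 0, at least 34.1-fold higher when 3 counts over the gate are allowed. Fibrinogen beta (Fgb), a liver product, had 56 counts against 1, Islr 73 against 2, the disintegrin Adam28 52 against 2 and the GABA-synthesising enzyme Gad1 47 against 3. All 4 high libraries carried counts of each of these genes. On the negative side, Dppa3, a germ cell and oocyte factor, had 3 counts in the high gate and 34, 72, 27 and 62 in negative 1 to negative 4. Nr0b1 (DAX1) had 1 against 177 counts, Pdzph1 2 against 113 and Zic4 3 against 97. Fgf4, the growth factor of the inner cell mass, had 0 counts in the high gate and 9, 42, 16 and 31 in the negative libraries, at least 23.3-fold lower.

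Medium and low share no library with the 2 end gates, so the same genes were read there. They entered the calls above through the estimate of spread, the expression filter and the scaling. Only 0.713% of tested genes were called between medium and low, 68 higher and 31 lower. All 68 of the former were among the 1169 genes higher in high than in negative (5.82% of these), and 30 of the latter were among the 1187 lower genes (2.53%); 0 were called the opposite way. Of the 1169 higher genes 87.1% had a positive difference between medium and low, against 48.4% of all tested genes, and of the 1187 lower genes 81.0% had a negative one, against 51.4%. The differences were smaller there, with medians of 0.24 and -0.18 on the log2 scale, against 0.85 and -0.97 between the end gates. The 68 became 35 without low 3, 41 without medium 1 and 43 without low 4, and the 30 became 19 without low 3 and 16 without medium 1.

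In several of the named genes the mean rose from gate to gate. Of the single steps only that from low to medium was tested. Six2, near 1 CPM in the negative libraries given above, was at 2.58 ± 1.08 CPM in low, 7.89 ± 4.17 in medium and 16.4 ± 5.24 in high, and the step from low to medium was itself called (log2 fold change 1.60, adjusted p = 0.0173). Myl3 went from 0.66 ± 0.193 to 1.65 ± 0.325, 6.97 ± 1.89 and 12.5 ± 5.73 CPM (low to medium 2.05, adjusted p = 0.000913), and Cfc1 from 0.726 ± 0.544 to 1.06 ± 0.679, 4.17 ± 1.40 and 11.7 ± 2.31 (1.92, adjusted p = 0.0475). Igfbp4, Cdkn1c, Aldh3b2 and Lpar3 were also called higher in medium than in low, by 0.89, 0.96, 1.20 and 1.20. Gpx3 reached its highest mean in the medium gate, 971 ± 120.1 CPM, beside 884 ± 42.8 in the high gate, a difference smaller than the SD of the medium gate. Fxyd6 changed mainly at the top and was at 106 ± 13.0 CPM in negative, 102 ± 9.38 in low, 139 ± 8.73 in medium and 238 ± 33.9 in high.

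**Figure D5:**
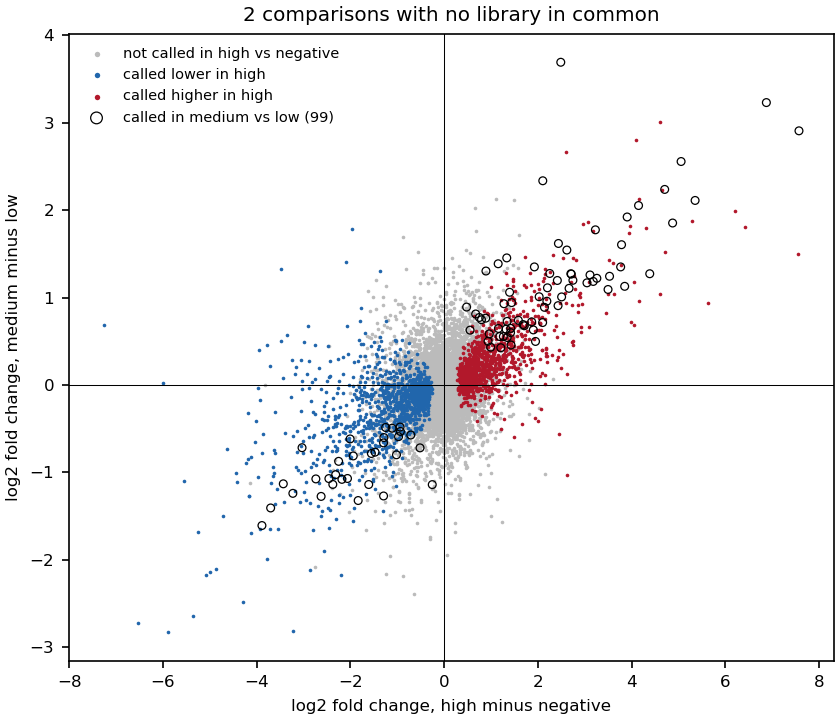
Each point is a tested gene, with its log2 fold change between high and negative (x axis) and between medium and low (y axis); red and blue mark genes called higher and lower in the high gate, and circles the 99 genes called between medium and low. The circles lie in the upper right and lower left, 68 of the former being red genes and 30 of the latter blue ones.

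Counting sets limits on single genes. Of the 190 genes taken by the naming rule, exons of 12 overlap another gene on the same strand and of 49 a gene on the opposite strand in GENCODE M21, the latter including Dnmt3l (with Aire), Myl3 (with Pth1r), Cfc1 (with Prss40), Sox15 (with Mpdu1), Zfp296 (with Gemin7), Fabp3 (with Zcchc17), Pfkp (with Pitrm1), Plekhg3 (with Sptb) and Atp8a1 (with Shisa3), and the strand setting of the counting was not stated. The overlaps on the same strand, which no strand setting separates, include Cdc14b (with Aaed1), Setd1a (with Gm49388), Sptbn4 (with Gm20479), Ncald (with Gm49397), Gata3 (with 9230102O04Rik) and Nrp1 (with Mir1903). Akr1b8 and Akr1b3, and Acot1 and its relatives, are close copies whose reads may be shared.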

How the data were processed

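The deposited table held raw gene counts that the authors made from the BRB-seq reads. GRCm38 is the mouse build in the submitters' processing notes, which also list STARsolo 2.7.9a, cutadapt 1.18 and DESeq2 1.42.0. Not given in the sources used here: their parameters, the annotation, the strand setting and the treatment of molecular identifiers.

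The expression filter of edgeR left 13891 of 35976 genes. Libraries were scaled by TMM (factors 0.97 to 1.05), and edgeR 4.0.16 (quasi-likelihood test, R 4.3.3, limma 3.58.1) was fitted to all 16 libraries with the 4 gates as groups. P-values were adjusted by Benjamini-Hochberg over all tested genes at 0.05. Each SE is the fold change (log2) over the root of its F statistic, and the CPM of single genes uses the scaled totals. Summed marker levels, the CPM worth of 1 count and the bounds for genes at 3 counts or fewer use unscaled totals. Scripts were tested on simulated data. In the shallowest library 1 count is worth 0.306 CPM, and a gene at 0 there may reach 0.918 CPM (3 counts). This covers counting error only.

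The members and lists were chosen with earlier results of these data known. From each of 29 lists, up to 3 genes were taken in each direction by fitted fold change, and 12 in each direction from genes in no list. They had to pass the test, reach a mean of 10 CPM in the higher gate and have no overlap between the 4 high and 4 negative libraries. Unnamed gene models and genes described in an earlier account of the series were left out of the naming. Up to 6 genes in each direction were also taken among those at 3 counts or fewer in a gate and 40 or more in the other. The genes printed are a part of the 190 so taken, a few being not reported here, fitted fold changes and SEs are on the log2 scale, and values after ± are SDs of 4 libraries. No pair of libraries within the high or within the negative gate agreed within sampling noise; other pairs were not compared. Alternatives were RLE scaling, DESeq2, no filter, the replicate number as a block, thinning to the smallest total, a fit of the 2 groups alone, a 1.5-fold threshold, each library left out and, chosen after the data were seen, 2 pairs of libraries left out.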

Additional observations from a re-analysis of the deposited data

Results flagged for a closer look

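Each named gene's 4 libraries of a gate were checked for a library that stood apart from the other 3, by Dixon's test at 95%. Of 380 groups 20 were marked (5.26%), and chance marks about 1 group in 20.

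Negative 2 accounted for 7 of these, each time as the highest of its gate. It was at 112 CPM for Pim2 (the other 3 at 54.7 to 58.0), 11.1 for Dock4 (5.99 to 6.64), 85.5 for Btbd17, a lower-ranked fall (37.8 to 43.6), and 15.9 for Slc28a1 (10.3 to 11.2). It was at 111 CPM for Sepp1 (19.6 to 27.8), 4.85 for Ripply3 (3.23 to 3.47) and 24.2 for Aoah (13.9 to 15.4).

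High 2 was at 19.4 CPM for Gata3 (34.9 to 36.5 in the others), 59.5 for Zfp277 (42.0 to 44.6), 0.757 for Tdgf1 (0 in the others) and 41.4 for Lefty1 (10.0 to 15.1). High 3 was at 18.0 CPM for Rora (24.9 to 26.2), 16.3 for Ano1 (9.71 to 9.84) and 184 for Smoc1 (198 to 201). High 1 was at 15.8 CPM for Hs6st3 (11.1 to 11.8) and 2.32 for Fabp3 (4.86 to 5.07). Negative 3 was at 7.80 CPM for Slco3a1 (5.89 to 6.14), 8.17 for Atp8a1 (10.3 to 10.7) and 9.62 for Efcab2 (11.0 to 11.2), and negative 4 was at 8.68 CPM for Zfp518a (11.1 to 11.5).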

How the results depend on the processing

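Of the 2356 calls, 2341 were kept with RLE scaling, 2300 with DESeq2, 2228 with the 2 groups alone, 2141 without a filter, 1506 after thinning and 1364 without high 2 and high 4; 0 were called the opposite way under any alternative. Leaving out each library in turn gave 931 to 1344 higher and 914 to 1411 lower genes, and 35 to 77 and 16 to 32 genes called in both comparisons. A 1.5-fold threshold left 322 higher and 322 lower. Thinning to the smallest total left 775 lower genes, 27 lower receptors, 29 higher and 38 lower transporters, and 42 higher and 17 lower genes called in both comparisons. Genes called in both numbered 113 higher and 65 lower without a filter and 38 and 17 in a fit of the 2 groups alone, 46 lower with DESeq2 and 44 higher without low 1 and medium 2. Without high 2 and high 4 there were 751 higher and 726 lower genes, 130 and 112 enzymes, 28 higher transporters and 19 lower structural and calcium-binding proteins. Of the 58 list counts, 21 fell by more than 1.5 times after thinning. Higher counts fell to 5 for glutathione enzymes, 9 for glycan enzymes, 26 for kinases, 11 for ubiquitin enzymes, 6 for chromatin enzymes, 12 for cytokine and adhesion-linked receptors, 7 for solute carriers and 11 for calcium-binding proteins. Lower counts fell to 19 for lipid enzymes, 1 for glycan enzymes, 7 each for glycolysis enzymes, proteases and GTPase regulators, 9 for phosphatases, 5 for G protein-coupled receptors, 6 for cytokine and adhesion-linked receptors, 18 for homeobox factors, 20 for bZIP and related factors, 18 for solute carriers, 12 for channels and 4 for calcium-binding proteins. Without high 2 and high 4, 27 fell by as much. The cause of these moves was not tested beyond the smaller numbers of counts, libraries or genes that the settings imply.

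Libraries with the same number in the high and negative gates did not deviate together (r from -0.037 to 0.057, over 0.1 in 0 of 4 pairs, and highest for the own number in 2 of 8 libraries). With the replicate number as a block 1235 genes were higher and 1233 lower, and 2292 calls were kept. The median log2 fold change of all genes stayed between -0.003 and 0.003 under RLE scaling, DESeq2 and the block. Of the 190 named genes, 0 reversed under the alternatives run for them, which leave out the 1.5-fold threshold. Their call was lost for 14 after thinning, 18 without high 2 and high 4, 2 with DESeq2, 2 without a filter and up to 8 with 1 library left out.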

Other observations

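In negative 1, 8 genes had at least 90% of all their counts over the 8 libraries. Meis2 had 209270 counts there and 21340 in the other 7 together, LOC108168785 5177 and 175, 4933430M04Rik 714 and 3, 4933427D06Rik 116 and 7, Gm38452 93 and 4, Tinag 51 and 1, LOC108167722 47 and 0 and Gm39136 40 and 0. LOC108168785 counted among the 1187 lower genes (log2 fold change -5.99, adjusted p = 0.0365). In high 4 the same held for Gm34388, with 58 counts there and 4 elsewhere.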
